A study of Homo sapiens with 6 samples.

Results

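The genes described here encode the subunits of the hypoxia-inducible factors (HIFs) and the enzymes through which cells sense oxygen. They are the alpha subunits HIF1A, EPAS1 and HIF3A, the beta subunits ARNT and ARNT2, the ubiquitin ligase component VHL, the prolyl hydroxylases EGLN1, EGLN2 and EGLN3, and the asparaginyl hydroxylase HIF1AN. These 10 genes were listed by name, with earlier results of these data known, among 60675 counted gene identifiers. Of them 9 had at least 1 count and passed the filter on low counts, as did 15261 genes in all, whereas HIF3A had no count in any library. RNA was sequenced from MDA-MB-231, a human triple-negative breast cancer cell line of mesenchymal character, after depletion of ribosomal RNA. A group of 3 control wells without added vitamin C was compared with 3 wells given 100 μM sodium ascorbate (vitamin C) over 3 days. The medium was renewed daily. Every library came from this single established line, and the labels give no genetic modification and no other agent in either group. The methods of the study describe several wells per group within an experiment and repeated experiments, without saying from how many experiments the sequenced wells of a group came. The spread on which p-values rest, that between these wells, may therefore be technical.

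In the presence of oxygen, the EGLN enzymes hydroxylate prolines of the HIF alpha subunits, VHL then binds the hydroxylated protein, and the proteasome degrades it. HIF1AN hydroxylates an asparagine in the alpha subunits and thereby hinders binding of the coactivators EP300 and CREBBP. These enzymes use iron, oxygen and 2-oxoglutarate, and ascorbate helps to keep their iron reduced. When hydroxylation is slowed, the alpha subunit accumulates, pairs with a beta subunit and activates genes that include EGLN1 and EGLN3 themselves. The alpha subunits are regulated chiefly as proteins, which RNA-seq does not measure, and all values below are transcript levels.

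After vitamin C, the HIF1A transcript rose while those of the prolyl hydroxylases EGLN1 and EGLN3 fell. HIF1A was 1.62-fold higher, EGLN1 was 29.7% lower and EGLN3 was 59.0% lower, each with no overlap between wells of the groups. The other 6 measured genes did not pass an adjusted p of 0.05 in the quasi-likelihood test of edgeR (Benjamini-Hochberg adjusted over all genes tested). In bulk RNA, fewer expressing cells and less RNA per cell cannot be told apart. Thus 1 of 9 was higher and 2 of 9 were lower, beside 3.6% of all 15261 genes tested that were higher and 3.48% that were lower (7.08% in either direction). DESeq2, the second tool of the study, called the same 3 genes, beside 10.7% of the 13472 genes to which it gave an adjusted p, and 7.19% of these were called by both tools. At an unadjusted edgeR p under 0.05 there were 1 higher and 3 lower, beside 14.3% of all genes tested that were higher and 13.1% that were lower at that threshold. In 6 of the 9 genes the wells of the groups did not overlap, beside 32.3% of all genes tested. Levels are given as CPM, the counts scaled by TMM so that libraries of unequal depth can be compared, and ± marks the SD of 3 wells. A difference is the log2 of vitamin C over control, positive where vitamin C was higher, and SE is its standard error.

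Total gene counts were 17664345 to 22373591 in the control libraries and 13434130 to 19553914 in the vitamin C libraries. Unmapped read pairs made up 24.2% to 34.4% in control and 24.7% to 49.5% in vitamin C libraries. Vitamin C 3, with 24.7% unmapped, lay with the other treated wells for HIF1A, EGLN1 and EGLN3. These 3 calls held when every library was thinned to the shallowest total, which evens out depth but not the unmapped share. Whether the unmapped share bears on the differences was not tested. The mesenchymal markers of the line were present in every library, with VIM at 1186 to 1316 CPM and AXL at 854 to 927 CPM. The estrogen receptor gene ESR1 had 0 counts and PGR had 4 counts in all. The receptor gene ERBB2 was not absent, at 38.8 to 50.1 CPM. The epithelial genes KRT8, KRT18 and EPCAM were also present, at 130 to 194, 185 to 253 and 21.2 to 35.5 CPM. KRT8, EPCAM and ERBB2 were higher in all treated wells, while KRT18 overlapped between the groups. Wells of the groups did not overlap in 32.3% of all genes tested.

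The sequence upstream of the genes that changed is shown because HIF dimers bind short motifs, ACGTG or GCGTG, within promoters. The 250 bases before the first RefSeq start are printed on the strand of the gene for EGLN1 (chr1:231422288-231422537, minus strand), EGLN3 (chr14:33951075-33951324, minus strand) and HIF1A (chr14:61695263-61695512, plus strand), from RefSeq on GRCh38.p14. Capitals mark ACGTG or GCGTG on either strand.
EGLN1: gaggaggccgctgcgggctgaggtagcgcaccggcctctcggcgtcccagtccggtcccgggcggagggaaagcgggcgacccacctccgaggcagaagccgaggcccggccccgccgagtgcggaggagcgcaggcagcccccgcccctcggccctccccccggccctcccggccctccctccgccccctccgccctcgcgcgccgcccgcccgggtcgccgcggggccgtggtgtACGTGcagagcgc
EGLN3: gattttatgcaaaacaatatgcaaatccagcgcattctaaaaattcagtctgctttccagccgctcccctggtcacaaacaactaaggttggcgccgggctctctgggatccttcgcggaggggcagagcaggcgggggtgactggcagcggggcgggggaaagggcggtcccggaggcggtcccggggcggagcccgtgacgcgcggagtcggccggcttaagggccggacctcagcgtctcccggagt
HIF1A: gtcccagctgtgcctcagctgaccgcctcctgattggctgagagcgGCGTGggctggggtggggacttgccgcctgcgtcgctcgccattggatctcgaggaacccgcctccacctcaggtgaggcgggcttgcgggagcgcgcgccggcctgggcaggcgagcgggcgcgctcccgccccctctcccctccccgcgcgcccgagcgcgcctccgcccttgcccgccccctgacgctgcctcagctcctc
The EGLN1 window held 1 ACGTG, which began 13 bases before the start, and the HIF1A window held 1 GCGTG, 204 bases before it. Neither motif was in the EGLN3 window. Of 35116 such windows in the RefSeq table, 18.5% held ACGTG, 32.2% held GCGTG and 43.2% held either on at least one strand. The windows of EGLN1, EGLN3 and HIF1A held 36, 23 and 29 CG dinucleotides, beside a median of 11. Entries were found for 8 of the 10 genes, and of those not called EPAS1 held 1 GCGTG, while ARNT and HIF1AN held neither motif. The first window of EGLN2, not called, held 2 ACGTG that overlap on opposite strands, and that of HIF3A, not measured above 0, held 3 GCGTG. These matches describe letters in a window and show neither binding nor its absence.

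HIF1A (ENSG00000100644, chromosome 14, 61695513 to 61748259, plus strand of GRCh38) encodes the alpha subunit of HIF-1. Its level was 783, 873 and 871 CPM in control 1, 2 and 3 and 1297, 1406 and 1400.0 CPM in vitamin C 1, 2 and 3. All treated wells lay above all control wells, and the spread within each group was small beside the gap. The mean rose from 842 ± 51.4 to 1368 ± 61.1 CPM (SD, n = 3), or 0.70 on the log2 scale (SE 0.08, 95% interval 0.53 to 0.86, edgeR adjusted p = 0.00156, DESeq2 adjusted p = 1.58e-14). With 13753 to 27891 counts in a library, HIF1A was the most deeply counted gene of the group. By fold it stood 665th from the highest of 15261 genes, so the rise was of moderate size.

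EPAS1 (ENSG00000116016, chromosome 2, 46293667 to 46386697), which encodes the HIF-2 alpha subunit, was measured at 57.8, 63.3 and 62.2 CPM in control and at 70.3, 65.8 and 58.3 CPM in vitamin C wells. Vitamin C 3 lay among the control wells, so the groups overlapped. The means were 61.1 ± 2.89 and 64.8 ± 6.05 CPM (log2 fold change 0.08, SE 0.09, 95% interval -0.11 to 0.27, edgeR adjusted p = 0.567). HIF3A (chromosome 19, 46297042 to 46343433), whose products include forms that restrain the other alpha subunits, had 0 counts in every library. A count of 0 allows up to 3 counts, or 0.134 to 0.223 CPM by library, as a limit for counting error only.

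The constitutive beta subunit ARNT (ENSG00000143437, chromosome 1, 150809713 to 150876708, minus strand) was at 42.4, 41.9 and 41.6 CPM in control and 46.7, 44.8 and 48.5 CPM in vitamin C wells. Every treated well was above every control well, by a small margin. The means were 42.0 ± 0.424 and 46.7 ± 1.84 CPM (log2 fold change 0.15, SE 0.08, 95% interval -0.01 to 0.32, edgeR adjusted p = 0.212). Its relative ARNT2 (ENSG00000172379, chromosome 15, 80404350 to 80597933) was at 37.0, 47.9 and 49.2 CPM in control and 52.0, 49.5 and 54.4 CPM in vitamin C wells. Control 1 was the low well, and the gap between control 3 and vitamin C 2 was small. The log2 fold change of ARNT2 was 0.22 (SE 0.11, 95% interval -0.02 to 0.45, edgeR adjusted p = 0.214), and 0.10 without control 1.

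VHL (ENSG00000134086, chromosome 3, 10141778 to 10153667), the substrate-binding subunit of the ubiquitin ligase that recognizes hydroxylated HIF alpha, was at 74.7, 76.8 and 67.4 CPM in control and 73.7, 71.1 and 78.3 CPM in vitamin C wells. The groups overlapped, although control 3 was the lowest well and vitamin C 3 the highest. The means were 73.0 ± 4.94 and 74.4 ± 3.62 CPM (log2 fold change 0.03, SE 0.08, 95% interval -0.14 to 0.20, edgeR adjusted p = 0.846). The sign of this small value depended on the libraries and became -0.03 without control 3.

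**Figure D1:**
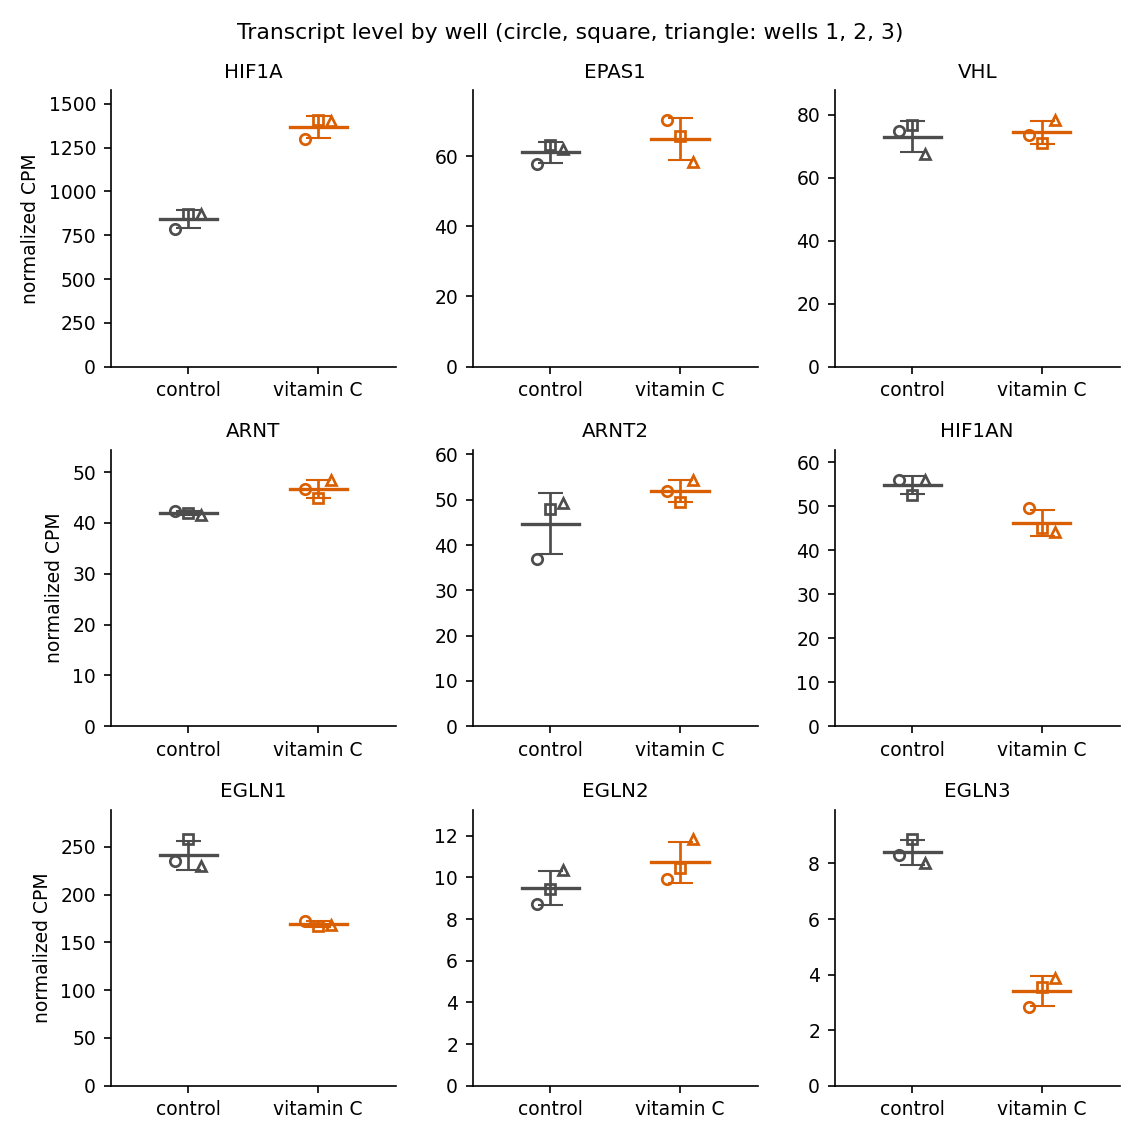
Normalized CPM (y axis, from 0, a separate scale for each gene) of the 9 measured genes in control (grey) and vitamin C (orange) wells, with circle, square and triangle for wells 1, 2 and 3, a line for the mean and bars for the SD. HIF1A lies higher in all treated wells (1297 to 1406 CPM against 783 to 873), and EGLN1 and EGLN3 lie lower in all treated wells.

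EGLN1 (ENSG00000135766, chromosome 1, 231363751 to 231422287, minus strand), also called PHD2, is the principal HIF prolyl hydroxylase under normal oxygen. It was at 235, 258 and 230.3 CPM in control and at 173, 168 and 168 CPM in vitamin C wells. The treated wells lay close together and all below the lowest control well. The mean fell from 241 ± 15.0 to 169 ± 2.88 CPM (log2 fold change -0.51, SE 0.07, 95% interval -0.67 to -0.35, edgeR adjusted p = 0.0067, DESeq2 adjusted p = 1.01e-07).

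EGLN3 (ENSG00000129521, chromosome 14, 33924227 to 34462774, minus strand), also called PHD3, is strongly induced by hypoxia in many cells. It was a low transcript here, at 8.31, 8.88 and 8.01 CPM in control and 2.82, 3.55 and 3.86 CPM in vitamin C wells. These values rest on 146, 200 and 161 counts in control and 38, 49 and 77 counts in vitamin C libraries. The highest treated well had less than the lowest control well. The mean fell from 8.40 ± 0.442 to 3.41 ± 0.537 CPM, 2.44-fold (log2 fold change -1.29, SE 0.16, 95% interval -1.63 to -0.94, edgeR adjusted p = 0.00304, DESeq2 adjusted p = 6.17e-07). By fold EGLN3 stood 20th from the lowest of the 15261 genes tested, while EGLN1 stood 558th.

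EGLN2 (ENSG00000269858, chromosome 19, 40798996 to 40808434), also called PHD1, is a prolyl hydroxylase that is not known as a hypoxia-induced gene. It was at 8.71, 9.46 and 10.3 CPM in control and 9.93, 10.4 and 11.8 CPM in vitamin C wells, and the groups overlapped. The log2 fold change was 0.18 (SE 0.13, 95% interval -0.09 to 0.45, edgeR adjusted p = 0.377). The readthrough gene RAB4B-EGLN2 shares 30.6% of the exon bases of EGLN2 and had 0 counts in every library, so reads in the shared exons may have been set aside as ambiguous and the EGLN2 level is uncertain.

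HIF1AN (ENSG00000166135, chromosome 10, 100529072 to 100559998), also called FIH, was at 56.1, 52.6 and 55.9 CPM in control and 49.6, 45.0 and 44.1 CPM in vitamin C wells. All treated wells lay below all control wells. The means were 54.8 ± 1.98 and 46.2 ± 2.95 CPM, and the log2 difference of -0.25 (SE 0.08, 95% interval -0.42 to -0.07) did not pass by edgeR (adjusted p = 0.0769) or DESeq2 (adjusted p = 0.0692). After a correction for GC and length, added once the data had been seen, the value was -0.32 with an edgeR adjusted p of 0.036.

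**Figure D2:**
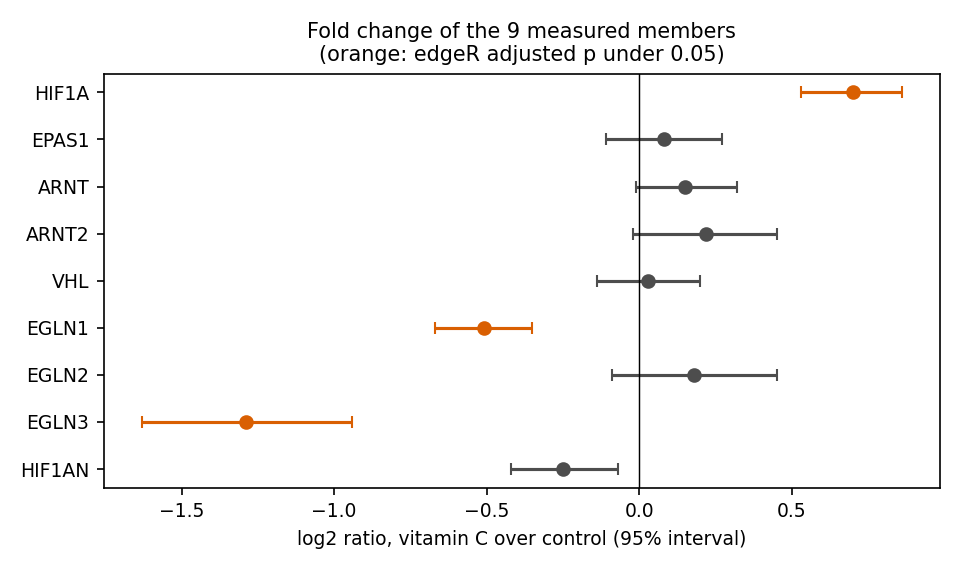
Log2 ratio of vitamin C to control (x axis) for the 9 measured genes, with 95% intervals from edgeR, in orange where the adjusted p is under 0.05. HIF1A at 0.70 lies to the right of 0, EGLN1 at -0.51 and EGLN3 at -1.29 to the left, and the interval of HIF1AN excludes 0 although its adjusted p is 0.0769.

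Ratios between these genes within a library do not depend on the scaling of libraries. The ratio of EGLN3 to EGLN1 counts was 0.0354, 0.0344 and 0.0348 in control and 0.0163, 0.0212 and 0.0230 in vitamin C libraries, lower in every treated library. It was 0.573 times that of control. The ratio of EPAS1 to HIF1A counts was 0.0738, 0.0724 and 0.0714 in control and 0.0542, 0.0468 and 0.0417 in vitamin C libraries, 0.652 times that of control. The ratio of ARNT to HIF1A counts was 0.684 times that of control. HIF1AN to EGLN1 moved the other way, to 1.20 times control, from 0.204 to 0.243 in control and 0.263 to 0.287 in vitamin C libraries. In none of these 4 ratios did the groups overlap, and each gave p = 0.1 in a two-sided exact permutation test over 3 against 3 libraries, the smallest p this design allows (0.1 after Benjamini-Hochberg adjustment over the 4).

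Levels of different genes can be compared per length, here as CPM per kb of merged exons. In control wells the order of levels was HIF1A (163.5 ± 9.97), EGLN1 (44.8 ± 2.78), VHL (14.6 ± 0.988), EPAS1 (8.38 ± 0.397), ARNT (6.51 ± 0.0657), ARNT2 (5.78 ± 0.865), HIF1AN (3.95 ± 0.143), EGLN2 (1.45 ± 0.124) and EGLN3 (1.14 ± 0.0601 CPM per kb). No neighbours in this order had overlapping wells. The order was the same after vitamin C, when only the levels of ARNT (7.24 ± 0.286) and ARNT2 (6.72 ± 0.321 CPM per kb) overlapped between neighbours. The level of HIF1A per kb was 3.65 times that of EGLN1 in control and 8.43 times after vitamin C.

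HIF1A made up 95.04% to 95.2% of the summed level per kb of HIF1A and EPAS1 in control libraries and 96.3% to 97.1% in vitamin C libraries. Among the prolyl hydroxylases, EGLN1 made up 94.1% to 94.8% of the summed level per kb in control and 93.1% to 94.4% in vitamin C libraries. The share of EGLN3 was 2.38% to 2.45% in control and 1.13% to 1.57% in vitamin C libraries, and that of EGLN2 was 2.84% to 3.46% and 4.45% to 5.37%. The place of EGLN3 depends on the length used, since its merged exons span 7363 bases and its longest transcript 2849. With the longest transcript as length, EGLN3 lay above EGLN2 in control wells (2.95 ± 0.155 against 2.44 ± 0.210 CPM per kb) and below it after vitamin C (1.20 ± 0.189 against 2.76 ± 0.254 CPM per kb). The share of EGLN3 was then 4.79% to 4.92% in control and 2.28% to 3.15% in vitamin C libraries. That of EGLN1 was 90.7% to 91.5% and 89.8% to 91.8%.

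**Figure D3:**
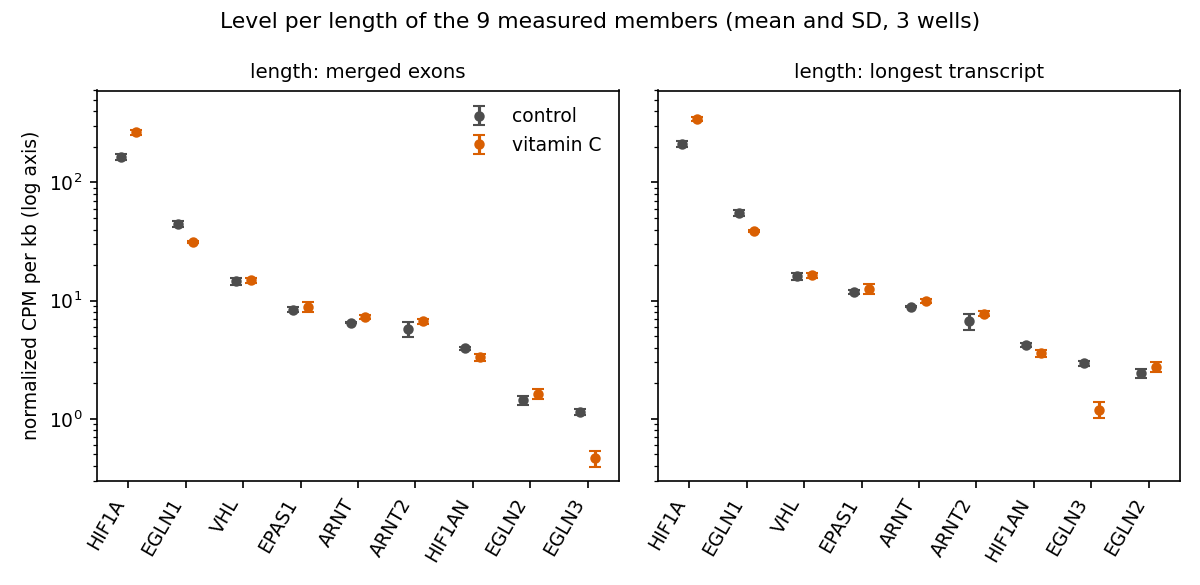
Normalized CPM per kb (log y axis; mean, with bars for the SD over 3 wells) of the 9 measured genes in control (grey) and vitamin C (orange) wells, ordered by the control level, with merged exons (left) or the longest transcript (right) as length. HIF1A and EGLN1 lead in both panels, and EGLN2 and EGLN3 exchange places in control wells.

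Many genes that overlap these loci were counted in the same libraries. The protein-coding gene ENSG00000287856 was not, and it shares 55.8% of the exon bases of EGLN1 on the same strand. Its reads, if any, cannot be told apart from those of EGLN1. ENSG00000287086 and ENSG00000287813, antisense genes that share 23.5% of VHL and 1.9% of ARNT2 exon bases, were also not counted. No source used here gives the strand setting of the counting, so reads of antisense pairs may not be told apart. HIF1A-AS3, an antisense RNA that shares 5.8% of the HIF1A exon bases, was at 5.52, 5.55 and 5.47 CPM in control and 3.56, 4.20 and 3.11 CPM in vitamin C wells. It fell, opposite to HIF1A, by 0.62 on the log2 scale (SE 0.16, edgeR adjusted p = 0.0447), but did not pass by DESeq2 (adjusted p = 0.0589) and passed in 7 of 16 alternative analyses. HIF1A-AS1, which overlaps the start of HIF1A on the other strand, had only 11 to 40 counts in a library. Its log2 fold change was 0.96 (SE 0.34, edgeR adjusted p = 0.0989), with vitamin C 3 the highest well at 2.01 CPM and vitamin C 1 at 0.815 CPM, and it was 0.54 without vitamin C 3. Either gene had far fewer counts than HIF1A.

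**Figure D4:**
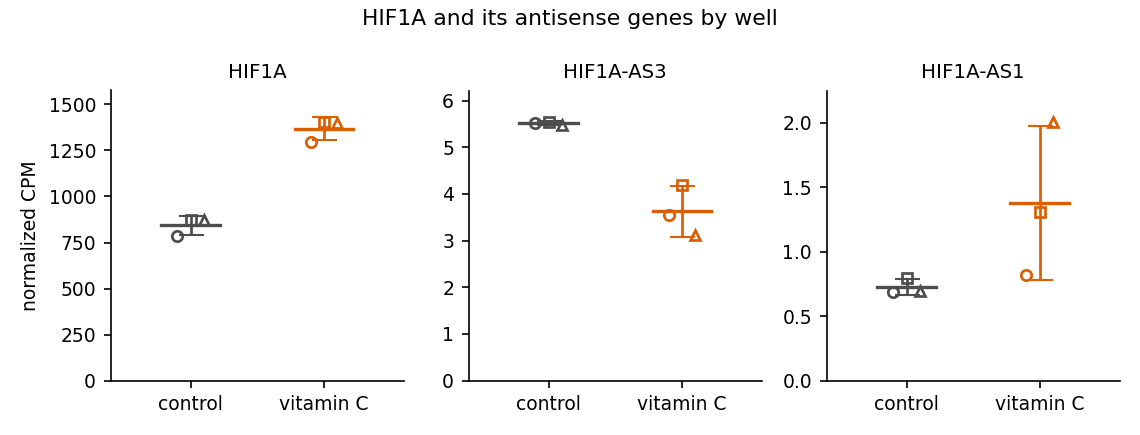
Normalized CPM (y axis, from 0, a separate scale for each gene) of HIF1A and of the antisense genes HIF1A-AS3 and HIF1A-AS1 in control (grey) and vitamin C (orange) wells, with the mean and SD. HIF1A is higher and HIF1A-AS3 lower in all treated wells, and the treated wells of HIF1A-AS1 spread from 0.815 to 2.01 CPM.

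An antisense RNA within ARNT2, ENSG00000270919, rose from 0.443 ± 0.129 to 1.14 ± 0.170 CPM (log2 fold change 1.38, SE 0.33, edgeR adjusted p = 0.0352). It had 7 to 24 counts in a library, was given no adjusted p by DESeq2 and passed in 7 of 14 alternatives. SPTSSA, which lies within the long span of EGLN3 without sharing exon bases, had a log2 fold change of -0.26 (edgeR adjusted p = 0.128; -0.37 and 0.0232 without vitamin C 3, and -0.13 without control 1 and vitamin C 2 together). NDUFB8, which overlaps HIF1AN, had one of 0.04 (edgeR adjusted p = 0.904). RNU6-1309P, within ARNT, and ENSG00000258010 and ENSG00000259175, within ARNT2, had 15, 12 and 13 counts in all and were not tested. Of the processed copies, EGLN1P1 and EGLN3P1 had 0 counts and HIF1AP1 had 9 in all.

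Of 22 partners of the pathway, which include the VHL complex, coactivators and chaperones, 21 were tested and only RBX1 passed, as lower. This was 4.76% called, beside 7.08% of all genes tested. RBX1, the RING subunit of the VHL ligase, was at 24.9, 20.02 and 17.2 CPM in control and 14.6, 12.1 and 15.4 CPM in vitamin C wells (log2 fold change -0.55, SE 0.14, edgeR adjusted p = 0.0433, DESeq2 adjusted p = 0.00908). This call was lost with limma-voom and without control 1, control 2, vitamin C 1 or vitamin C 2. The median log2 fold change of the partners was 0.05, beside 0.02 for all genes tested.

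Of 26 genes commonly induced by HIF, 24 were tested, 15 passed as lower by edgeR and 9 did not. The 15 were 62.5% of those tested, beside 3.48% of all genes tested that were lower. DESeq2 called these 15 and also SLC2A3, a glucose transporter gene named after its values were seen (DESeq2 adjusted p = 0.0272, edgeR adjusted p = 0.0509). The median log2 fold change of the 24 was -0.54, beside 0.02 for all genes tested. At an unadjusted edgeR p under 0.05, 17 were lower and 1 was higher, beside 13.1% and 14.3% of all genes tested. The higher gene was MXI1, named after its values were seen (log2 fold change 0.38, edgeR adjusted p = 0.146). The study chose 5 of the 26 genes on these libraries, namely PGK1, BNIP3, ADM, PDK1 and HK2, and reported each lower by qRT-PCR too. Because of that choice, the list is not independent evidence of its direction. Without these 5 genes 10 of 19 were lower with a median of -0.42. These 19 were also listed with earlier results of these data known, so they are not independent evidence either. Without control 2, 9 of the list were lower. BNIP3, a receptor for mitophagy, fell from 226 ± 14.5 to 95.7 ± 2.96 CPM (log2 fold change -1.24, SE 0.08), and the vasodilator peptide gene ADM fell from 25.3 ± 1.70 to 10.7 ± 0.510 CPM (-1.24, SE 0.10). PDK1, a kinase that inhibits pyruvate dehydrogenase, and P4HA1, a collagen prolyl hydroxylase, fell by 0.99 (SE 0.09) and 0.84 (SE 0.08) on the log2 scale. The edgeR adjusted p was below 0.05 for each of these.

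Of 10 targets often assigned to EPAS1, 7 were tested by edgeR. Of these 1 rose, 1 fell and 5 did not pass (28.6% called, beside 7.08% of all genes tested). DESeq2 called both and also PLIN2, a lipid droplet protein gene named after its values were seen, as lower (DESeq2 adjusted p = 0.046, edgeR adjusted p = 0.0599). The median log2 fold change was -0.25. AREG, which encodes an EGF receptor ligand, rose from 21.3 ± 1.93 to 32.3 ± 0.731 CPM (log2 fold change 0.60, SE 0.09, edgeR adjusted p = 0.00909). CCND1, which encodes cyclin D1, fell from 791 ± 59.9 to 619 ± 30.4 CPM (-0.35, SE 0.08, edgeR adjusted p = 0.0284), a call lost without control 1, control 2, vitamin C 1 or vitamin C 2.

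**Figure D5:**
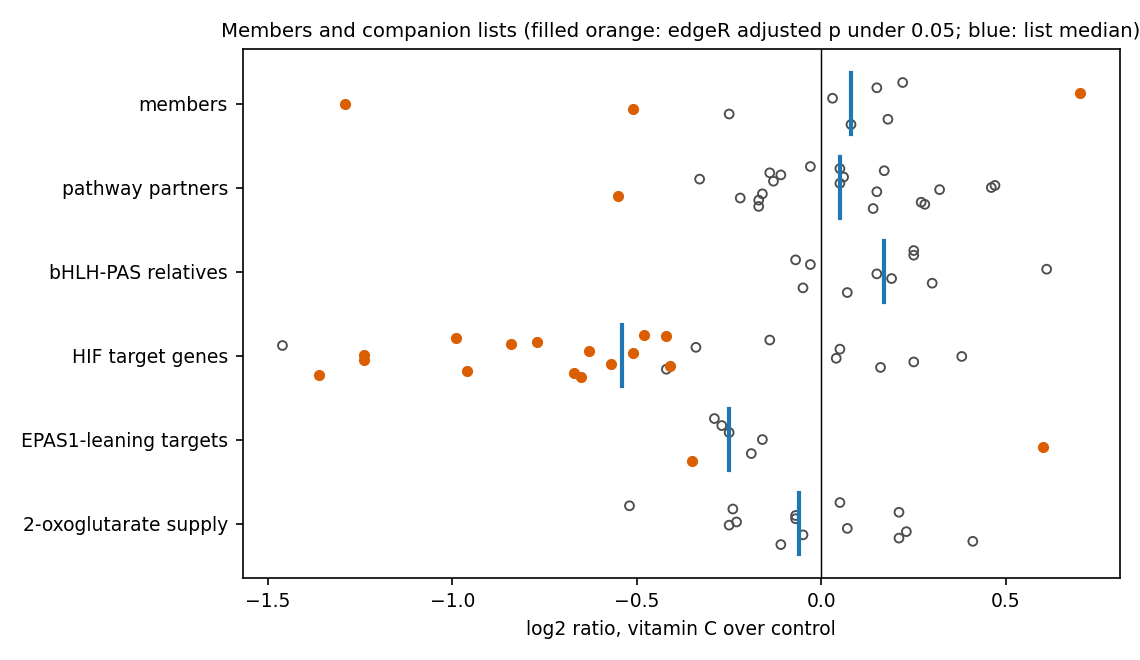
Log2 ratio of vitamin C to control (x axis) for each tested gene of the HIF and hydroxylase group and of 5 companion lists, filled orange where the edgeR adjusted p is under 0.05, with a blue line at the median of each list. The HIF target genes lie mostly left of 0 with a median of -0.54, and the other companion lists have medians between -0.25 and 0.17.

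The genes whose log2 CPM followed each changed gene most closely over the 6 libraries were found among 10140 genes averaging 100 counts or more. They were TMCO4, DOCK11 and CAMK2G for HIF1A (Pearson r = 0.997, 0.995 and 0.995), OBI1, FYTTD1 and ZNF654 for EGLN1 (0.995, 0.994 and 0.993), and RPLP0, LSM4 and PLOD2 for EGLN3 (0.993, 0.991 and 0.991). In the same order, their log2 fold changes were 0.60, 0.25 and 0.21, then -0.27, -0.18 and -0.30, then -0.22, -0.23 and -0.47. Only TMCO4, ZNF654 and PLOD2 passed by edgeR, so a high r does not mean a change of like size. Among the changed genes themselves, r was 0.96 between EGLN1 and EGLN3 and -0.96 between HIF1A and EGLN1. The 6 points share their libraries and split by group, so these values describe the group difference and carry no test.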

How the data were processed

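Read counts for each Ensembl gene were deposited by the authors, unnormalized, for 6 libraries, after CASAVA 1.4, Trim Galore and STAR alignment to hg38, as the submitters' processing notes list. The sources used here give no STAR version, Ensembl release or strand setting. The 4 summary lines of each file (50.6% to 69.7% of its total) were left out. A deposited table of all samples was not used. GENCODE 44 held 56558 of 60675 identifiers. Groups came from the sample labels. The main test was edgeR 4.0.16 in R 4.3.3 (TMM, filterByExpr with a minimum count of 10, quasi-likelihood F test, Benjamini-Hochberg adjustment over all genes tested), with DESeq2 1.42.0 and limma-voom 3.58.1 as alternatives, checked on simulated data. The biological coefficient of variation was 9.40%, with 3 wells per group. Counts of replicate libraries differed beyond sampling noise, with chi-square values of 4.54 to 21.6 for each degree of freedom.

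The genes, lists and tests were chosen with earlier results of these data known. Named were the 10 genes, overlapping genes with at least 10 counts, up to 4 called genes of each list with the smallest edgeR p or else its 2 most abundant, and the 3 most similar genes of each changed gene. Some other overlapping genes that share exon bases were also named. Other normalizations, filters, depth, a replicate block, omitted libraries and, after the data were seen, a GC and length correction and the joint omission of control 1 and vitamin C 2 were tried. The prior count was 2 for the log2 CPM behind the similarity.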

Additional observations from a re-analysis of the deposited data

How the results depend on the processing

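The calls of HIF1A, EGLN1 and EGLN3 held in all 16 alternatives: 3 of the 10 genes were called in 15 of them and 4, with HIF1AN, after the GC and length correction, while leaving out each library in turn gave 3 to 3. HIF1A ranged from 0.63 to 0.74, EGLN1 from -0.55 to -0.46 and EGLN3 from -1.40 to -1.18 on the log2 scale, with adjusted p up to 0.0134, 0.0415 and 0.0241. VHL turned to -0.03 without control 3 and to -0.01 without vitamin C 3 (-0.03 to 0.06 with a library left out), and NDUFB8 to -0.07 without control 2 (-0.07 to 0.14) and -0.02 after the GC and length correction, all without passing. Of the other genes not called, EPAS1 ranged over the alternatives from 0.00 to 0.15, ARNT from 0.12 to 0.19, ARNT2 from 0.10 to 0.29 and EGLN2 from 0.09 to 0.24. The pathway partners had 2 calls with upper-quartile factors, with no filter and after thinning, 0 with limma-voom and without control 1 and vitamin C 2 together, and 0 to 4 with a library left out. The bHLH-PAS relatives had 1 call with upper-quartile factors, no filter, the filter of 50 counts and thinning, and 0 to 3 with a library left out. The 2-oxoglutarate supply genes had 1 call with upper-quartile factors and the filter of 50 counts, 2 with no filter and DESeq2, and 0 to 2 with a library left out. The EPAS1-leaning targets had 4 calls with no filter, 1 without control 1 and vitamin C 2 together, and 1 to 2 with a library left out, and the HIF targets 9 to 17. The cause was not tested.

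Over all genes, 1080 were called (50.8% higher), 2245 with no filter, 128 to 1900 with a library left out, and 268 without control 1 and vitamin C 2 together. Higher genes were 64.6% of calls with upper-quartile factors, 40.6% with DESeq2 and 34.4% after the GC and length correction. Same-numbered wells did not deviate together (correlations 0.04, -0.15 and -0.10), so numbers were not taken as pairs. With the replicate block 731 genes were called, 3 of the 10 genes among them. The EGLN3 values rest on 38 to 77 counts in treated libraries.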

Other observations

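The bHLH-PAS relatives, transcription factors and coactivators that share the fold of the HIF subunits, showed no call in 10 tested genes of 13 by edgeR or DESeq2, with 4 higher and 0 lower at an unadjusted edgeR p under 0.05 (beside 14.3% and 13.1% of all genes tested) and a median log2 fold change of 0.17, beside 0.02 for all genes tested. The most abundant were AHR, the aryl hydrocarbon receptor, at 396 ± 19.1 CPM in control and 376 ± 38.5 CPM in vitamin C wells (log2 fold change -0.07, SE 0.09, edgeR adjusted p = 0.625), and the circadian factor BMAL2, at 265 ± 20.4 and 255 ± 6.92 CPM (-0.05, SE 0.08, edgeR adjusted p = 0.681).

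Genes whose enzymes make or use 2-oxoglutarate and the related acids of the citric acid cycle had 0 calls in 14 by edgeR, with 2 higher and 4 lower at an unadjusted p under 0.05, against the same 14.3% and 13.1% of all genes tested. DESeq2 called 1 higher and 1 lower. These, named after their values were seen, were IDH1, which encodes a cytosolic isocitrate dehydrogenase (log2 fold change 0.41, SE 0.14, DESeq2 adjusted p = 0.0433), and SDHD, a subunit of succinate dehydrogenase (-0.52, SE 0.16, DESeq2 adjusted p = 0.0121). The edgeR adjusted p was 0.0887 for IDH1 and 0.0714 for SDHD, and the wells of the groups overlapped for both. The most abundant were SDHA, at 173 ± 7.70 in control and 165 ± 8.12 CPM in vitamin C wells, and fumarate hydratase, FH, at 116 ± 7.23 and 98.7 ± 6.79 CPM (log2 fold change -0.24, SE 0.08, edgeR adjusted p = 0.0894).

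CA9, a carbonic anhydrase gene used as a hypoxia marker and named after its values were seen, was listed in the control wells at 0.228, 0.533 and 0.497 CPM and at 0 in the 3 vitamin C wells, and was too low to be tested.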
